A study of Mus musculus with 6 samples.

Results

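The 6 microRNAs (miRNAs) miR-223-3p, miR-223-5p, miR-142a-3p, miR-142a-5p, miR-146a-5p and miR-146b-5p were followed in small and large extracellular vesicles (EVs) of mouse bone. They were chosen by name as miRNAs of myeloid and wider blood cell origin, 6 of the 1927 rows of the count table. All 6 were above 0 in every library, and all were among the 145 miRNAs with enough counts to be tested. Vesicles came from crushed tibias and femurs of untreated male mice of the Swiss-CD1 strain, 8 weeks old. Marrow was first spun out at 14000 g and cells were removed at 2000 g. Small EVs (sEVs, 3 libraries) were those that a spin at 100000 g left above a cushion of 30% sucrose. Large EVs (lEVs, 3 libraries) were the pellet at 10000 g. Size, spin and cushion differ together between the fractions. The labels do not say whether replicates were separate animals or pools, so the spread behind the p-values may be technical only.

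A miRNA is cut from a hairpin transcript, whose 5p and 3p arms can each be loaded into an Argonaute protein and guide it to messenger RNAs that pair with the seed, bases 2 to 8. miR-223 is abundant in granulocytes and monocytes, where it restrains neutrophil activity. miR-142 is made in nearly all blood cell types and in few other cells. miR-146a and miR-146b come from separate genes and share a seed. miR-146a is induced by NF-kappaB in innate immune cells and represses Traf6 and Irak1, which pass on signals that activate NF-kappaB. Bone holds marrow-derived cells of this kind beside its own osteoblasts and osteocytes, and osteoclasts also descend from the myeloid lineage.

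The mature sequences, from RefSeq on GRCm38.p6 with 6 of 6 members matched, are shown because they decide which members share a seed and how far the paired members can be told apart by reads. They are written 5′ to 3′ with the seed in capitals.
miR-223-3p: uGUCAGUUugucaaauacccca
miR-223-5p: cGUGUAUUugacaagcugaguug
miR-142a-3p: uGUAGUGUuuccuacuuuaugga
miR-142a-5p: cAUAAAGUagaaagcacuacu
miR-146a-5p: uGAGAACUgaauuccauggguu
miR-146b-5p: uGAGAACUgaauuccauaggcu
miR-146a-5p and miR-146b-5p have the same seed and differ by G18A and U21C, counted from 1 at the 5′ end of miR-146a-5p with its base first. Both differences lie in the last bases of the 22, so a read that is short or trimmed at its 3′ end tells the pair apart poorly, and their split depends on the authors' counting. No mature mouse miRNA of the table of RefSeq sequences shares a seed with either arm of miR-223 or of miR-142a. None of the 6 was in a row that joins several miRNAs.

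The hairpins of miR-223 and miR-142a are shown with both mature arms in capitals, since the arm ratios below compare these stretches.
Mir223: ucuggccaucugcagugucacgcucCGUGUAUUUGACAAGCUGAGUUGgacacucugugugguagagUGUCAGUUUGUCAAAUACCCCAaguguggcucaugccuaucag
Mir142: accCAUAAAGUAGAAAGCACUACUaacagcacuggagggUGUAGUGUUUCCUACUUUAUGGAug
Mir223 lies at chrX:96242817-96242926, plus strand, in an exon of the noncoding gene F630028O10Rik on the same strand (GENCODE M21, GRCm38). Mir142 lies at chr11:87756864-87756927, plus strand, in an intron of the noncoding gene Mir142hg. Mir146, which encodes miR-146a, lies between annotated genes at chr11:43374397-43374461, minus strand. Mir146b lies at chr19:46342762-46342870, plus strand, in an intron of Mfsd13a. On the opposite strand of Mir142 is miR-142b (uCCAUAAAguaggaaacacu, chr11:87756906-87756925), the reverse complement of bases 4 to 23 of miR-142a-3p. The use of strand in the authors' counting is not given in the sources used here, and the miR-142b row held 0 counts in all 6 libraries.

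The libraries held between 75486 and 114331 counts in sEVs and between 47441 and 92502 in lEVs. The shallowest, lEVs replicate 1, stood apart. Over the tested miRNAs its median absolute log2 difference from the mean of the other libraries of its fraction was 0.41, against 0.20 to 0.25 for the other 5 libraries. The common biological coefficient of variation was 0.177 with it and 0.0832 without it. Results that rest on this library are given with and without it. Among marker lists of other cells, mesenchymal miRNAs held 13.2% ± 0.932 of the counts in sEVs and 12.1% ± 0.771 in lEVs, and endothelial miRNAs 8.41% ± 0.181 in sEVs, against 7.35% ± 0.723 in lEVs (SD over n = 3 libraries each). Skeletal muscle miRNAs held 1.86% ± 0.176 in sEVs, against 2.26% ± 0.423 in lEVs, and cartilage miRNAs 1.13% ± 0.0426 in sEVs, against 1.63% ± 0.352 in lEVs (SD over n = 3 libraries each). The liver miRNA miR-122-5p was at 0 in all 6 libraries.

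The 6 miRNAs together took 4.88%, 5.03% and 5.36% of the counts of replicates 1, 2 and 3 of sEVs, against 4.61%, 6.47% and 6.39% of lEVs in the same order. The sEVs lay between lEVs replicate 1 and the other lEVs libraries. miR-223-3p made up 59.8% ± 2.05 of the counts of the 6 in sEVs and 55.4% ± 1.06 in lEVs (SD over n = 3 libraries each). It ranked between 8th and 12th of all miRNAs in each library.

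The order of levels was the same in both fractions. In CPM with TMM factors (counts scaled to a common library size, such that most miRNAs match between libraries), it ran miR-223-3p, miR-142a-3p, miR-142a-5p, miR-146a-5p, miR-146b-5p, miR-223-5p, with no overlap between the libraries of neighbours in either fraction. Counts were not scaled by the length of the miRNA, and mature lengths ran from 21 to 23 bases. Differences in ligation and capture between sequences were not measured.

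**Figure D1:**
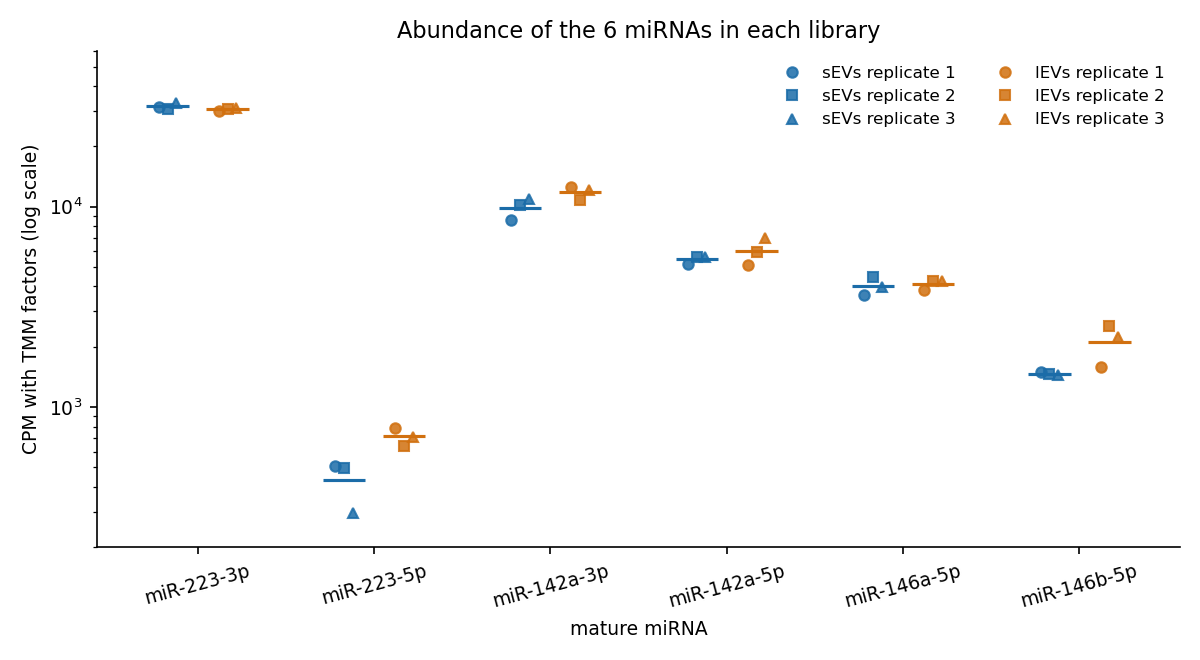
Abundance of the 6 miRNAs in CPM with TMM factors, on a log axis; each point is 1 library, sEVs in blue left of lEVs in orange, and each bar is the mean of 3 libraries. miR-223-3p was nearly level over the 6 libraries, while all 3 sEVs points of miR-223-5p and of miR-146b-5p lay below the lEVs points.

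Between the fractions, none of the 6 passed an adjusted p of 0.05, where 17.2% of the 145 tested miRNAs did (quasi-likelihood test of edgeR, Benjamini-Hochberg adjustment over all 145). At an unadjusted p under 0.05 there were 2 of the 6, miR-223-5p and miR-146b-5p, against 55 of all 145. DESeq2, which called 26.1% of the miRNAs it tested, and limma voom, which called 20%, also called 0 of the 6. Log2 fold changes of sEVs over lEVs were above 0 for 1 of the 6 and below 0 for 5, where 69 of all 145 were above 0. The median of the 6 was -0.20, beside a median of -0.04 over all miRNAs tested. Scaled by library totals instead of TMM, all 6 were below 0. The median of all tested miRNAs then moved to -0.18 and that of the 6 to -0.33. In CPM with TMM factors the 3 sEVs values did not overlap the 3 lEVs values for 2 of the 6, where 44.1% of all tested miRNAs had no overlap. Where a log2 fold change was below 0, though not called, fewer vesicles from blood cells and fewer copies of a miRNA per vesicle cannot be told apart in these data.

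**Figure D2:**
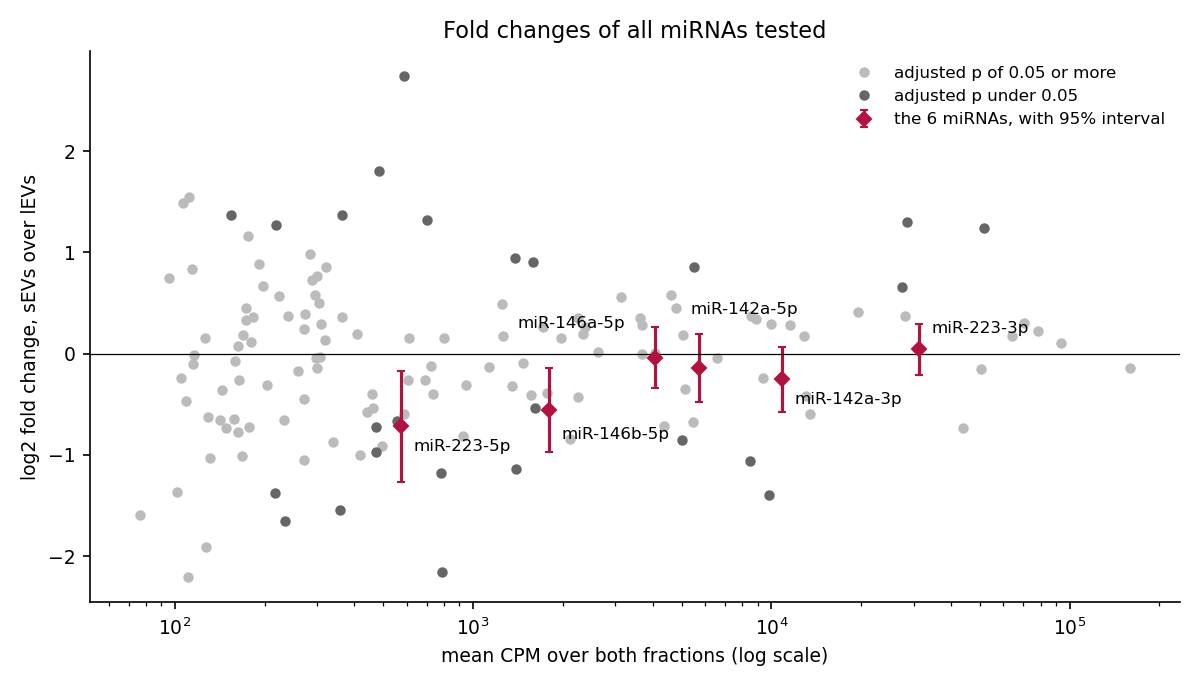
Log2 fold change of sEVs over lEVs against mean CPM on a log axis for the 145 miRNAs tested; red diamonds are the 6 miRNAs with 95% intervals, dark points other miRNAs with an adjusted p under 0.05. The intervals of miR-223-5p and miR-146b-5p lay below 0 and the other 4 crossed it.

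miR-223-3p, the guide arm that is abundant in neutrophils and monocytes, was nearly level over the libraries. It had 2285, 2892 and 3652 counts in replicates 1, 2 and 3 of sEVs, against 1222, 3360 and 3000 counts in lEVs in that order. These were 31533, 30574 and 32787 CPM in sEVs, against 30194, 30848 and 30985 CPM in lEVs. The highest library was 1.09 times the lowest, and the fractions overlapped. The log2 fold change was 0.04 (SE 0.11, 95% interval -0.21 to 0.30; edgeR adjusted p = 0.783). Of the 143 miRNAs with a mean of at least 100 CPM, 0 had a smaller SD of log2 CPM over the 6 libraries than its 0.04. This depended on the scaling. As shares of library totals it ran from 2.58% in lEVs replicate 1 to 3.63% in lEVs replicate 2, its SD of log2 values was 0.18, and 12 of the 143 miRNAs were steadier.

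miR-223-5p, the passenger arm of the same hairpin, was lower in each sEVs library than in any lEVs library. It had 37, 47 and 33 counts in replicates 1, 2 and 3 of sEVs, against 32, 70 and 69 counts in lEVs in that order. That made 511, 497 and 296 CPM in sEVs, against 791, 643 and 713 CPM in lEVs. On library totals its shares, 0.0490%, 0.0473% and 0.0289% in sEVs against 0.0675%, 0.0757% and 0.0796% in lEVs, did not overlap either. The log2 fold change was -0.72 (SE 0.24, 95% interval -1.27 to -0.17), which missed the threshold (edgeR adjusted p = 0.0664). It passed when scaled by library totals (edgeR adjusted p = 0.0368, with 24.1% of all tested miRNAs called), without the filter on low counts (0.0244, with 16.2% called) and without lEVs replicate 1 (0.0282, with 34.4% called). The counting error was wide: the share in sEVs replicate 3 had an exact 95% binomial interval of 0.0199% to 0.0405%, and intervals of this kind cover counting error only.

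The arms of miR-223 were the most unequal of the 15 hairpins whose arms were both tested. The 3p arm outnumbered the 5p arm by 61.8, 61.5 and 111 to 1 in replicates 1, 2 and 3 of sEVs, against 38.2, 48.0 and 43.5 to 1 in lEVs in that order. All 3 sEVs ratios were above the lEVs ratios, as were those of 20% of the 15 hairpins, and 33.3% had no overlap in either direction. In other words, miR-223-5p made up 1.36% ± 0.405 of the counts of both arms in sEVs and 2.28% ± 0.257 in lEVs (SD over n = 3 libraries each). The log2 ratio of 3p to 5p was 6.21 ± 0.48 in sEVs, against 5.41 ± 0.17 in lEVs (SD over n = 3 libraries each). The difference of 0.80 (SE 0.33, 95% interval 0.05 to 1.54) did not pass across the hairpins (limma adjusted p = 0.0962, unadjusted 0.0385). Without sEVs replicate 3 the difference was 0.52 (limma adjusted p = 0.270). Unlike levels, such a ratio within a library does not depend on how libraries are scaled.

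Over all 15 hairpins 20% were called, miR-574, miR-361 and miR-455 (limma adjusted p = 0.0109, 0.0204 and 0.0441), and neither miR-223 nor miR-142a was called. The ratio of the more abundant arm to the other was higher in sEVs for 7 of the 15, with a median log2 difference of -0.01.

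**Figure D3:**
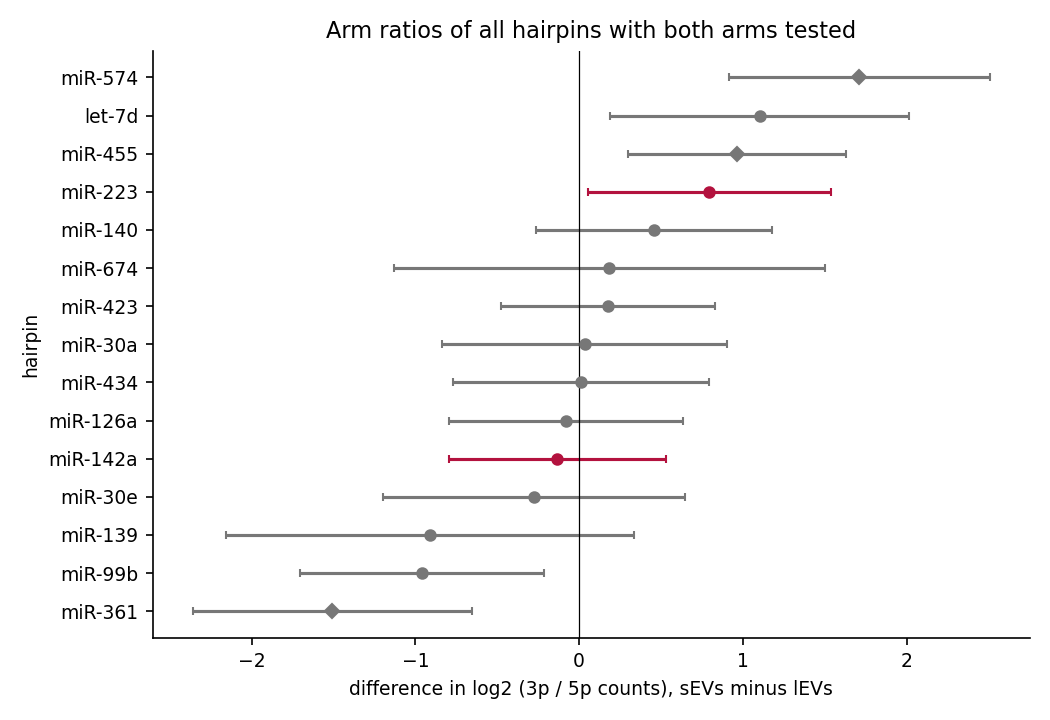
Difference between sEVs and lEVs in the log2 ratio of 3p to 5p counts, with 95% intervals, for the 15 hairpins with both arms tested; diamonds mark an adjusted p under 0.05 and red marks miR-223 and miR-142a. miR-223 lay at 0.80 and miR-142a at -0.13.

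The arms of miR-142a, a hairpin active across blood cell types, were both abundant. miR-142a-3p had 620, 963 and 1214 counts in replicates 1, 2 and 3 of sEVs, against 508, 1171 and 1167 counts in lEVs in that order. In CPM these were 8556, 10181 and 10899 in sEVs, against 12552, 10751 and 12053 in lEVs. The highest sEVs library was just above the lowest lEVs library. Its log2 fold change was -0.25 (SE 0.14, 95% interval -0.57 to 0.07; edgeR adjusted p = 0.203). On library totals, the shares of 0.821%, 0.970% and 1.06% in sEVs lay below the 1.07%, 1.27% and 1.35% in lEVs, without overlap but with little space between the nearest libraries, and the difference did not pass (edgeR adjusted p = 0.109).

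miR-142a-5p had 374, 532 and 622 counts in replicates 1, 2 and 3 of sEVs, against 206, 646 and 674 counts in lEVs in that order. The corresponding levels were 5161, 5624 and 5584 CPM in sEVs, against 5090, 5931 and 6961 CPM in lEVs. The fractions overlapped, and the log2 fold change was -0.14 (SE 0.14, 95% interval -0.48 to 0.20; edgeR adjusted p = 0.474).

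The 5p arm made up 37.6%, 35.6% and 33.9% of the miR-142a counts in replicates 1, 2 and 3 of sEVs, against 28.9%, 35.6% and 36.6% in lEVs in that order. In 5 of the 6 libraries the share lay between 33.9% and 37.6%. The library apart was lEVs replicate 1 (exact 95% binomial interval 25.6% to 32.3%). The difference in log2 ratio of 3p to 5p was -0.13 (SE 0.30, 95% interval -0.80 to 0.53; limma adjusted p = 0.905), and 0.02 without lEVs replicate 1 (limma adjusted p = 0.931). For miR-142a there were 1.81 ± 0.147 counts of 3p per count of 5p in sEVs and 2.00 ± 0.403 in lEVs, and for miR-223 there were 78.0 ± 28.3 in sEVs, against 43.2 ± 4.91 in lEVs (SD over n = 3 libraries each).

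miR-146a-5p, a brake on Toll-like receptor and interleukin-1 signalling, showed no difference beyond the spread. It had 263, 423 and 441 counts in replicates 1, 2 and 3 of sEVs, against 156, 464 and 412 counts in lEVs in that order. The levels were 3629, 4472 and 3959 CPM in sEVs, against 3855, 4260 and 4255 CPM in lEVs. The lowest and the highest library were both sEVs. The log2 fold change was -0.04 (SE 0.13, 95% interval -0.34 to 0.26; edgeR adjusted p = 0.831). Its other arm, miR-146a-3p, held 0 counts in all 6 libraries, as did miR-146b-3p, so no arm ratio was formed for either hairpin.

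miR-146b-5p, with the same seed, gave a result that depended on 1 library. It had 108, 139 and 161 counts in replicates 1, 2 and 3 of sEVs, against 64, 277 and 217 counts in lEVs in that order. These were 1490, 1469 and 1445 CPM in sEVs, against 1581, 2543 and 2241 CPM in lEVs. The sEVs libraries were close to each other, lEVs replicate 1 stood just above them and the other lEVs libraries well above. On library totals lEVs replicate 1, with 0.135%, lay below the sEVs libraries, which lay between 0.140% and 0.143%. The log2 fold change was -0.56 (SE 0.18, 95% interval -0.97 to -0.14; edgeR adjusted p = 0.0628). Without lEVs replicate 1 it was -0.72 (SE 0.15; edgeR adjusted p = 0.000566), where 34.4% of the 151 miRNAs then tested passed. It also passed without the filter on low counts (edgeR adjusted p = 0.0222).

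Within the miR-146 pair, miR-146b-5p made up 29.1%, 24.7% and 26.7% of the counts of both in replicates 1, 2 and 3 of sEVs, against 29.1%, 37.4% and 34.5% in lEVs in that order. The shares of sEVs replicate 1 and lEVs replicate 1 matched to within the counting error, with an exact 95% binomial interval of 24.5% to 34.0% in sEVs replicate 1, against 23.2% to 35.6% in lEVs replicate 1. The log2 ratio of miR-146a-5p to miR-146b-5p was 1.44 ± 0.16 in sEVs, against 0.98 ± 0.27 in lEVs (SD over n = 3 libraries each). These ratios have 0.5 counts added to each miRNA, and with them all sEVs ratios were the higher. The difference was 0.46 (exact two-sided permutation p = 0.1, the smallest that 3 against 3 libraries allow, and 0.1 adjusted over the 2 ratios tested in this way). The nearest libraries, sEVs replicate 1 and lEVs replicate 1, had nearly equal ratios (1.28 each). Without the added counts their order turned, with 2.4352 to 1 in sEVs replicate 1 and 2.4375 to 1 in lEVs replicate 1, and the fractions overlapped. The separation, and the p-value that goes with it, thus rest on the added counts. With 1 library left out, the difference ran from 0.34 (without lEVs replicate 2) to 0.61 (without lEVs replicate 1).

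**Figure D4:**
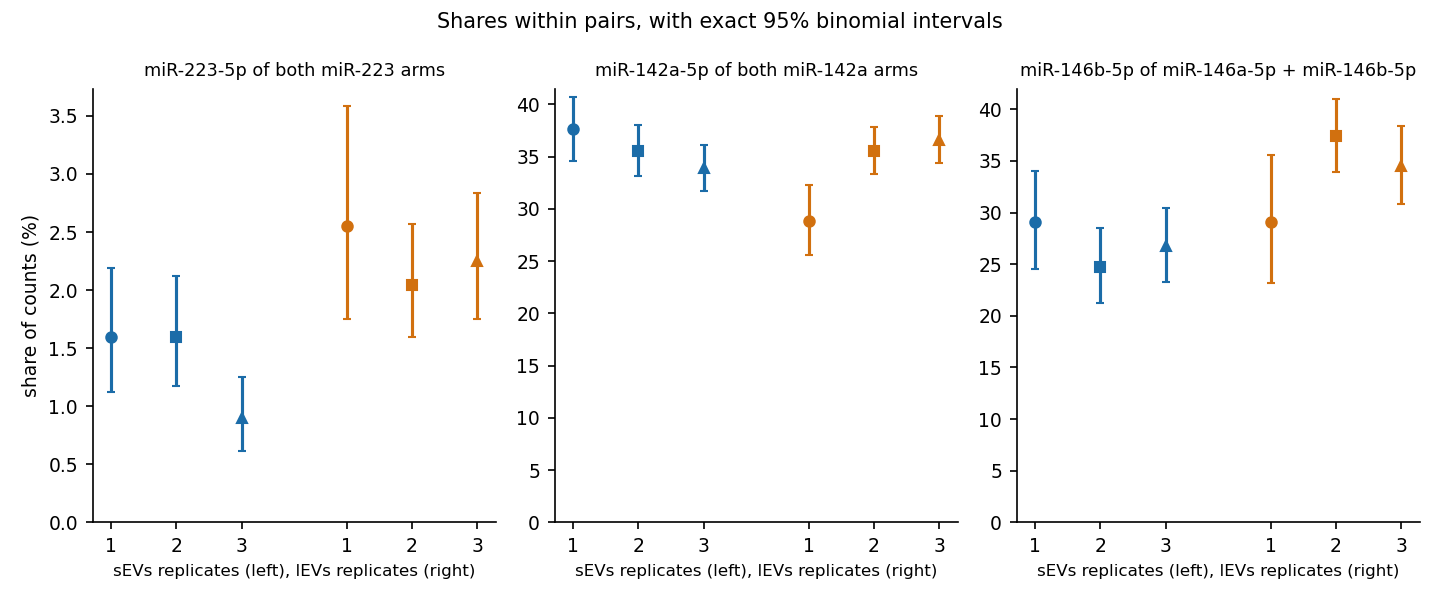
Share of miR-223-5p among both miR-223 arms, of miR-142a-5p among both miR-142a arms, and of miR-146b-5p among miR-146a-5p and miR-146b-5p, in percent of counts, for each library; sEVs are on the left in blue, lEVs on the right in orange, and bars are exact 95% binomial intervals. The 3 sEVs shares of miR-223-5p lay below the 3 lEVs shares, and in the other panels the share in lEVs replicate 1 was below those in the other lEVs libraries.

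The other ratio set miR-223-3p, of granulocytes and monocytes, against the wider blood cell miRNA miR-142a-3p. There were 3.69, 3.00 and 3.01 counts of miR-223-3p per count of miR-142a-3p in replicates 1, 2 and 3 of sEVs, against 2.41, 2.87 and 2.57 in lEVs in that order. The sEVs ratios were all higher, by a narrow space between sEVs replicate 2 and lEVs replicate 2. On the log2 scale the ratio was 1.69 ± 0.17 in sEVs, against 1.38 ± 0.13 in lEVs (SD over n = 3 libraries each), a difference of 0.30 (exact permutation p = 0.1, two-sided, again the lowest value allowed; 0.1 adjusted over 2 ratios).

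Other miRNAs of myeloid cells and macrophages were read from a list of 15. Of these, 8 were above 0 in any library and 6 were tested. None passed in the direction of sEVs and 1 was higher in lEVs, miR-322-5p, the mouse counterpart of miR-424 in human monocytes, whose level was 1314 ± 198 CPM for sEVs and 1898 ± 134 CPM for lEVs (SD over n = 3 libraries each). Its log2 fold change was -0.53 with an SE of 0.15 (edgeR adjusted p = 0.0477). Over 13 alternatives its adjusted p ran from 0.00619 to 0.146, and the call was lost in 8 of them. Among these 8 were the fits without sEVs replicate 1 (edgeR adjusted p = 0.146), sEVs replicate 2 (0.125), lEVs replicate 2 (0.0991) and lEVs replicate 3 (0.134), and the fit scaled by library totals (0.0536). The share of all tested miRNAs called higher in lEVs was 8.97%. The list's median log2 fold change was -0.22. The most abundant member, miR-21a-5p, which is high in macrophages and many other cells, had 12681 ± 1761 CPM in sEVs, against 10361 ± 2909 CPM in lEVs (log2 fold change 0.29; edgeR adjusted p = 0.367). miR-196b-5p, of myeloid progenitors, and miR-130a-3p did not pass either, at log2 values of -0.41 and -0.04 (adjusted p = 0.303 and 0.912 in edgeR). Nor did miR-503-5p, at 0.18 (adjusted p = 0.783 in edgeR). miR-155-5p, induced in activated macrophages, was named after its values were seen. Its counts were 6, 11 and 13 in replicates 1, 2 and 3 of sEVs, against 4, 28 and 10 in lEVs in that order, and it did not pass (edgeR adjusted p = 0.341). Both arms of miR-511, encoded in the macrophage gene Mrc1, were at 0 in all 6 libraries.

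Markers of other blood cells were read in the same way. The lymphoid list of 7 held 0.749% ± 0.0424 of the counts in sEVs and 0.624% ± 0.0935 in lEVs, and 1 of its 4 tested members, miR-150-5p, was higher in sEVs by 0.91 on the log2 scale (adjusted p = 0.00268 in edgeR), as were 8.28% of all miRNAs tested. The other tested lymphoid miRNAs did not pass. Their log2 fold changes were 0.35 for miR-342-3p, 0.27 for miR-181a-5p and -0.26 for miR-181b-5p (adjusted p = 0.101, 0.158 and 0.453 in edgeR). The erythroid list held 0.482% ± 0.0744 in sEVs, against 0.626% ± 0.107 in lEVs (SD over n = 3 libraries each), with overlapping libraries. Neither of its 2 tested rows passed: the log2 fold change was -0.35 for miR-486a-5p/486b-5p, which holds most of the list's counts, and 0.39 for miR-451a (adjusted p = 0.367 and 0.427 in edgeR). The library ranges were 0.705% to 0.789% in sEVs and 0.516% to 0.688% in lEVs for the lymphoid list, and 0.438% to 0.568% in sEVs and 0.544% to 0.746% in lEVs for the erythroid list. The part of these cell types in the values of the 6 miRNAs was not tested.

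The profiles most like those of the members over the 6 libraries were found by the root mean square difference of log2 CPM, centred on each miRNA's mean, among 137 other miRNAs with a mean of at least 100 CPM. Nearest to miR-223-3p were miR-24-3p (0.08), miR-708-5p (0.10) and miR-93-5p (0.10). Nearest to miR-142a-3p were let-7f-5p (0.09), miR-30a-5p (0.14) and miR-708-5p (0.15). Nearest to miR-146a-5p were miR-708-5p (0.11), miR-30a-5p (0.12) and miR-24-3p (0.14). None of these 5 miRNAs passed the threshold between the fractions in edgeR, with adjusted p-values from 0.373 to 0.964, so the likeness is that of nearly level profiles.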

How the data were processed

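Small RNA from 3 sEVs and 3 lEVs preparations was made into libraries with the QIAseq miRNA kit and read as single reads of 75 bases on an Illumina MiSeq, per the labels' protocols. The authors deposited counts per mature miRNA, whole numbers that are not normalized. GRCm38, R 4.2.2 and DESeq2 1.38.2 are named, per the submitters' processing notes. The aligner, the use of strand and of molecular identifiers are unstated in the sources used here. Of the 1927 rows, 35 joined several names. The table had 0 values of 1, so zeros may hide single counts and gave no upper limit.

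Columns and replicate numbers were taken from the labels. The tool was edgeR 4.0.16 (R 4.3.3), with its quasi-likelihood test, TMM scaling and the default filterByExpr (minimum count 10, minimum total 15), sEVs over lEVs, with Benjamini-Hochberg adjustment over 145 miRNAs. SEs are the absolute log2 fold change over the square root of F. Log2 arm ratios, with 0.5 counts added to each arm, were fitted with limma 3.58.1 over the 15 hairpins with both arms tested as unjoined rows. Other ratios were tested by exact permutation in SciPy 1.17.1. Profiles used log2 values of CPM plus 10. Both fits were run on simulated data with the same spread for every miRNA or hairpin and no outlying library. That checks the code and not the error rates of the fits on these data. Replicates of a fraction differed by more than sampling noise (chi-square over its degrees of freedom at least 2.40). The 6 members were named in full; of the other myeloid list the 4 most abundant tested miRNAs, of other hairpins those called, and 3 nearest profiles each for miR-223-3p, miR-142a-3p and miR-146a-5p were named. miR-150-5p, miR-155-5p, miR-181b-5p, miR-503-5p and the miRNAs at 0 were named after their values were seen. The members and lists were chosen with earlier results of these data known.

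The other settings were limma voom, DESeq2 1.42.0, its size factors within edgeR, library totals, no filter, a minimum mean of 100 CPM, replicate numbers as a block, each library left out and, for ratios, 2 counts added, other filters and counting weights.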

Additional observations from a re-analysis of the deposited data

How the results depend on the processing

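Of the 6 miRNAs, 1 was called with library totals, 2 without the filter on low counts and 2 without lEVs replicate 1, all higher in lEVs, and 0 under the other 10 alternatives. Of all miRNAs tested, 24.1%, 16.2% and 34.4% were called in these settings in that order, and 16.6%, 10.1% and 15.2% were called higher in lEVs. The calls among the 6 were those of miR-223-5p with library totals (log2 fold change -0.86), without the filter (-0.75) and without lEVs replicate 1 (-0.67), and of miR-146b-5p without the filter (-0.59) and without lEVs replicate 1 (-0.72). With 1 library left out, log2 fold changes ran from -0.88 to -0.54 for miR-223-5p, -0.72 to -0.45 for miR-146b-5p, -0.030 to 0.077 for miR-223-3p, -0.16 to 0.060 for miR-146a-5p, -0.38 to -0.13 for miR-142a-3p and -0.24 to -0.04 for miR-142a-5p. The sign of miR-223-3p turned with library totals (-0.084) and without sEVs replicate 3 (-0.030), that of miR-146a-5p without sEVs replicate 1 (0.060), and that of the miR-142a arm ratio without lEVs replicate 1 (0.025; range -0.23 to 0.025). The miR-223 arm ratio kept its sign, with differences from 0.52 to 0.94 and adjusted p from 0.0787 to 0.509. For the log2 ratio of miR-223-3p to miR-142a-3p, the difference ran from 0.20 to 0.37 with 1 library left out.

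The number of called miRNAs, 25, was 53 without the filter, and ran from 16 (without lEVs replicate 3) to 52 (without lEVs replicate 1). The number of called hairpins, 3, was 1 with at least 10 counts for both arms in every library, 1 with counting weights and 0 without a filter, and ran from 0 to 4 with a library left out, at 0 without sEVs replicate 1, sEVs replicate 3, lEVs replicate 1 or lEVs replicate 3. The cause was not tested. Against a total without the 5 most abundant miRNAs the 6 took 9.44% of the counts in sEVs and 10.8% in lEVs, as the smaller denominator implies, and with a library left out 4.96% to 5.19% in sEVs and 5.50% to 6.43% in lEVs of all counts. The steadiness of miR-223-3p under library totals was computed after seeing the data.

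Deviations of same-numbered libraries from their fraction means had correlations of -0.07, 0.07 and 0.37, against -0.31 to 0.14 for libraries with different numbers. With 3 libraries per fraction, these values cannot decide whether the numbers pair the libraries. With the replicate number as a block, 26 miRNAs were called and 0 of the 6, 2 hairpins were called, and the log2 fold changes of miR-223-5p and miR-146b-5p were -0.75 and -0.53. The 32 to 70 counts of miR-223-5p limit both its level and its arm ratio.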
